A study of Mus musculus with 8 samples.

Results

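The USP family is the largest group of deubiquitinases, the proteases that take ubiquitin off other proteins. Its genes were described in Ly6C-high monocytes with and without deletion of Commd10. Members were taken by name: 45 genes of the count table are called Usp followed by a number, 1 of them was not taken, and the remaining 44 of 15566 genes are described here. They encode 43 USP proteins, and the last, Usp6nl, matches by name only and encodes a protein that switches Rab GTPases off by speeding their GTP hydrolysis. The family was chosen by its member Usp31, one of the clearest increases in the deficient libraries, so its difference between genotypes and its call are descriptions and support nothing. The same contrast chose the list, and the p-values of members are therefore not given.

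RNA came from classical monocytes, the Ly6C-high cells that mature in the marrow and are recruited from the blood to inflamed tissue. They were sorted from the marrow of untreated male C57BL/6 mice, 8 weeks of age, as living cells positive for CD45, CD11b and CD115, high for Ly6C and negative for CD117 and Ly6G. The deficient group (LysMDCommd10, 4 libraries) lacks Commd10 where LysM-Cre, a recombinase made in myeloid cells, has cut its floxed alleles. The control group (Commd10fl/fl, 4 libraries) consists of weight-matched littermates, which carry the floxed alleles too. The labels do not tie libraries to mice or litters, so p-values measure only the spread between these samples. All controls have smaller running numbers in their titles than all deficient samples, and an order of handling cannot be told apart from genotype.

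Ubiquitin is attached to proteins singly or in chains, and the form of the chain decides whether a protein is degraded by the proteasome, sorted at a membrane or engaged in signalling. USP proteases reverse this step through a shared catalytic fold, and their different flanking regions place them at the proteasome, on chromatin, at endosomes and mitochondria, or in receptor complexes. In myeloid cells deubiquitinases are best known for setting the strength of innate immune signalling. COMMD10 belongs to a family of adaptor proteins that act in the recycling of membrane proteins from endosomes.

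Library totals were 14231121 to 31040255 counts for controls and 17099454 to 30722262 for deficient libraries, so that 1 count stood for 0.0324 to 0.0703 CPM (counts scaled to the total of the library). Commd10 was at 29.2 ± 1.46 CPM in the controls and 21.3 ± 2.17 CPM in the deficient group (n = 4 each, ± SD; log2 fold change -0.46, SE 0.07, edgeR adjusted p = 0.0292). Cre had 499 to 987 counts in the deficient libraries and 0 counts in every control. Monocyte genes were abundant in both groups: the mean of Ly6c2 was 1784 CPM in the controls and 1976 CPM in the deficient group, and that of Ccr2 was 2450 and 2317 CPM. Ly6g, the neutrophil antigen left out by the gate, had 0 to 0.324 CPM in control libraries and 0.233 to 0.423 CPM in deficient libraries. The summed markers of mature neutrophils, Ly6g among them, were at 747 to 864 CPM in control and 765 to 1039 CPM in deficient libraries. Of the 7 tested genes of that list, 5 were higher and 2 lower. Summed markers of neutrophil precursors were at 253 to 368 CPM in control and 356 to 571 CPM in deficient libraries, with 10 of 10 genes higher. Summed erythroid markers were at 408 to 715 against 252 to 476 CPM, with 7 of 7 tested genes lower, and B cell markers at 453 to 621 against 412 to 471 CPM, with 8 of 8 lower. The sums of 2 further lists did not overlap. Stem and progenitor markers were at 26.0 to 30.9 against 16.4 to 24.5 CPM (3 of 3 tested genes lower). Dendritic cell markers were at 82.0 to 90.6 against 63.9 to 81.3 CPM (5 of 6 lower). These sums are not separate observations, because Flt3 is on both lists. Its mean was 15.89 CPM in the controls and 10.22 CPM in the deficient group, without overlap. The groups of Cd34 and Meis1, the other tested stem and progenitor genes, overlapped. Among the other dendritic cell genes only Clec9a had groups that did not overlap, and those of Tcf4, the most abundant, did. Of 6 T and NK cell markers, Cd3e, Trac, Klrb1c and Ncr1 are not listed. A difference between these bulk libraries can come from fewer cells of a type or from less RNA per cell, which cannot be told apart.

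The promoters of Usp31, Usp10 and Usp7 are shown because these are the members whose levels were higher in every deficient library than in any control. Each sequence is the RefSeq window from 250 bases before to 50 bases after the annotated start (GRCm38.p6), written 5′ to 3′ on the strand of the gene. Capitals mark matches, on either strand, to GGGCGG (the GC box bound by Sp factors), CCAAT (the CCAAT box) and CACGTG (an E-box).
Usp31, chr7:121707393-121707692, minus strand: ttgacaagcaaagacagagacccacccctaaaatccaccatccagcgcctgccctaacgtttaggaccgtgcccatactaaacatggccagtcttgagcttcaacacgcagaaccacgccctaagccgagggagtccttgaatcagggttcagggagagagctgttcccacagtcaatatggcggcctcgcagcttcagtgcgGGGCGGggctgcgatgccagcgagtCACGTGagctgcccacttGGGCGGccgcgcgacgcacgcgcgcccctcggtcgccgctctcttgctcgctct
Usp10, chr8:119910110-119910409, plus strand: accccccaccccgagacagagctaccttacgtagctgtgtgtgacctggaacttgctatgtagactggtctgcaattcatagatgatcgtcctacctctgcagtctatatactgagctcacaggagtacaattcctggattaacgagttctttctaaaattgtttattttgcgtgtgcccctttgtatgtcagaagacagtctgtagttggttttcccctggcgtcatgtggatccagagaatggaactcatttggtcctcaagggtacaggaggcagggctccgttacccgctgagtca
Usp7, chr16:8738293-8738592, minus strand: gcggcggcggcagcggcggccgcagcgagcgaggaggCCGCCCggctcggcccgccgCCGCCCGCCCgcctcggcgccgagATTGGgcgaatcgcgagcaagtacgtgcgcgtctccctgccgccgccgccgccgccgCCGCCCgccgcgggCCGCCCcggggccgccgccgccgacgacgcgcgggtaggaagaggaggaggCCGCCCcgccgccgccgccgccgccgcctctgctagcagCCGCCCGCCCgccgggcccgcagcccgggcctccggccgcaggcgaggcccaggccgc
The Usp31 window has a GC content of 61.7% and 25 CpG sites, with 2 GC boxes around 1 E-box close to the start. The Usp7 window has a GC content of 86.0%, 63 CpG sites, 8 GC boxes and 1 CCAAT box. The Usp10 window, at 48.3% and 8 CpG sites, holds none of the letters searched. The RefSeq start lies outside the GENCODE gene for Usp31 and inside it for Usp7, and the start used in these monocytes was not measured.

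RefSeq promoters were found for 34 of the 44 genes, with 35 windows. Most lie in CpG-rich DNA: their median was 66.3% GC and 30 CpG sites, against 52.7% and 7 over all 32851 promoters of that table. That table is not limited to genes expressed in these monocytes, so nothing particular to the family is read from its shares. GGGCGG was found in 25 of the 34 genes and in 35.7% of all promoters, and CCAAT in 6 of the 34 and in 37.4% of all. TATAAA (the TATA box) was found in 2 of the 34 genes and 13.6% of all promoters. CCGGAAG (an ETS-type site) occurred in 8 of the 34 and in 8.86% of all. Neither TGACGTCA (a CRE, 1.79% of all promoters) nor GAANNTTC (a short heat shock element, 7.86%) was found in any of the 34 genes. The E-box CACGTG, in 7.15% of all promoters, was found in Usp31 and in Usp4, Usp16, Usp32 and Usp6nl, and these other 4 genes had log2 fold changes of -0.11 to 0.04 between genotypes. All motifs were searched on both strands, and a match is a match of letters only.

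Usp25 and Usp8 were the most abundant members in control monocytes. Levels were compared between genes in TPM (transcript abundance, scaled by library and corrected for gene length). Usp25, which acts on adaptor proteins of innate immune receptors, was at 201 ± 8.06 TPM (SD, n = 4). Usp8, which removes ubiquitin from receptors and from the sorting machinery at endosomes, was at 191 ± 4.495 TPM, and the ranges of these 2 genes overlapped. Usp1, which with its partner WDR48 reverses ubiquitination in DNA repair, followed at 121 ± 7.19 TPM, below every value of Usp8. Usp12, another protease activated by WDR48, was at 109 ± 6.57 TPM, Usp7, which controls p53 and its ligase MDM2, at 88.6 ± 3.81 TPM, and Usp5, which takes apart free ubiquitin chains, at 86.1 ± 3.45 TPM. These 6 genes held 50.7 ± 0.348% of the summed TPM of the 44 members in the controls.

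The remaining members ran down to fractions of a TPM. In the controls 29 members were at 10 TPM or more, 12 lay between 1 and 10 TPM, and Usp27x (0.743 TPM), Usp50 (0.341 TPM) and Usp44 (0.144 TPM) lay below. The median of the 42 tested members was 17.6 TPM, against 18.5 TPM over all tested genes. Usp31 stood at rank 33 in the controls with 5.09 ± 0.367 TPM and at rank 32 in the deficient group with 7.42 ± 0.303 TPM. Between neighbours in the order of the controls, 16 of 43 pairs had values that did not overlap, so most neighbouring ranks are not distinct beyond their spread. The order was nearly the same in both genotypes: 25 members had the same rank, and the largest move was 3 places. Usp10 moved from rank 28 to 25 and Usp2 from 39 to 36. The length of a gene matters here: with the longest transcript in place of all exons, Usp4 was at rank 3 instead of 9.

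**Figure D1:**
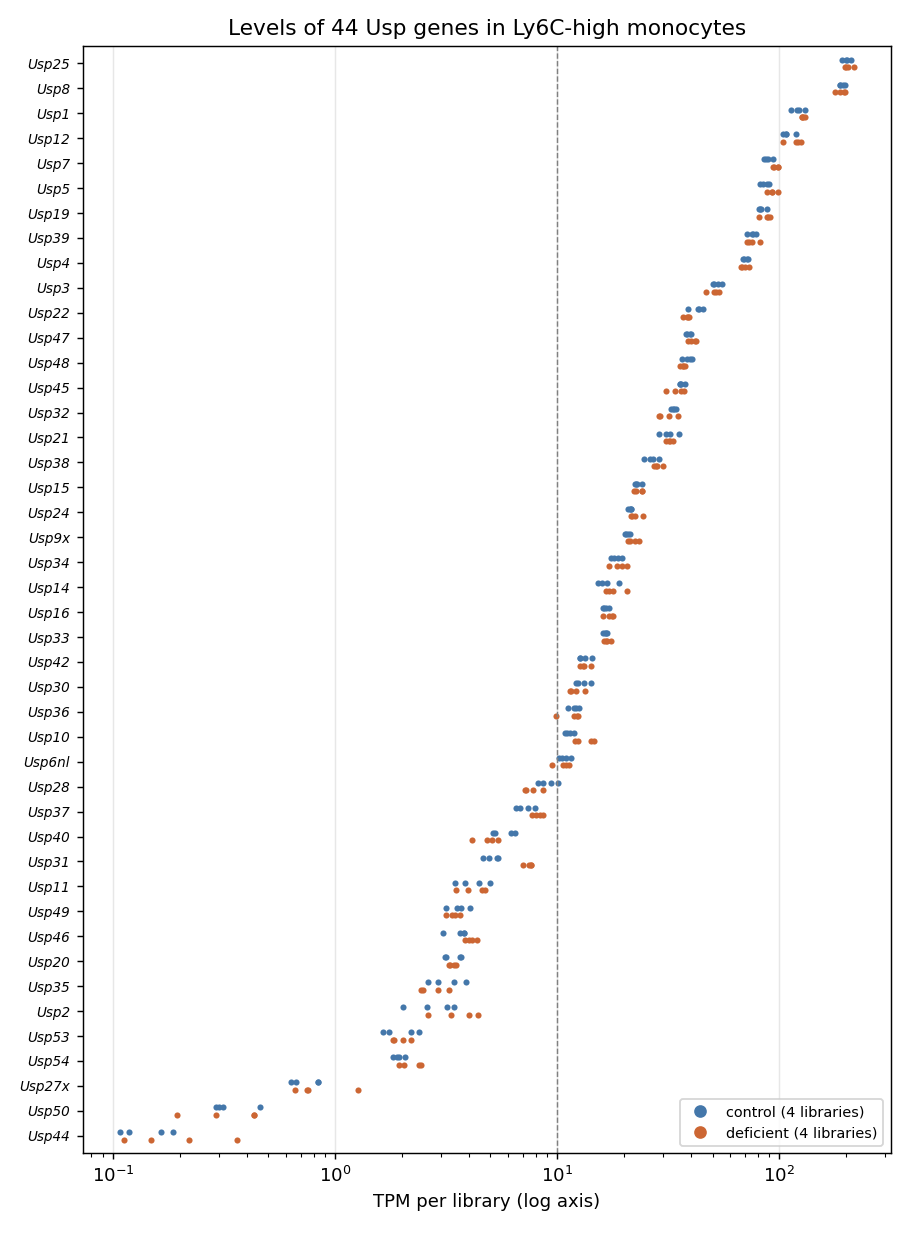
Level of each of the 44 members in TPM on a log axis, 1 point per library, with 4 control libraries in blue and 4 deficient libraries in orange; the dashed line marks 10 TPM. Usp25 and Usp8 lie near 200 TPM in both groups, 29 members lie above the line in the controls, and Usp31, at 5.09 against 7.42 TPM, has 2 groups that lie apart.

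Usp31 was the one member with a clear separation between genotypes. The human protein has been described as a regulator of NF-kB signalling and as a protein of the microtubule network. The mouse gene (ENSMUSG00000063317) lies on chromosome 7 at 121642021 to 121707253, minus strand (GRCm38, GENCODE M21). Its level was 16.2, 14.3, 15.04 and 16.8 CPM in control 1 to 4 and 22.8, 22.9, 21.1 and 23.3 CPM in deficient 1 to 4. The highest control lay 4.22 CPM below the lowest deficient library, and the values within each group were close together. The means were 15.6 ± 1.12 and 22.5 ± 0.987 CPM (SD, n = 4 each), so the deficient level was 144% of that in controls, a log2 fold change of 0.53 with an SE of 0.07. The change lay at the percentile 98.5 of the log2 fold changes of all tested genes. These are the values that chose the family.

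Of the 42 members tested, 1 (Usp31) was past the threshold of an adjusted p under 0.05 and 0 were lower past it, where 0.873% of the 12938 tested genes were past it in either direction; nothing is read from this count, because Usp31 chose the list. The count was 0 without control 1, control 3 or deficient 4, when the log2 fold change of Usp31 was 0.54, 0.51 and 0.51. Without any 1 library the value of Usp31 ranged from 0.48 to 0.57. An unadjusted p under 0.05 was reached by 7 of the 42 members and by 24% of all tested genes. A stretch of 179 exon bases of Usp31 (1.74%) overlaps the antisense gene 1700069B07Rik, which had 52 counts in all 8 libraries together.

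The part of other cells in the difference of Usp31 was not tested. Neutrophil precursor markers were at 433, 571, 356 and 560 CPM in deficient 1 to 4, and at 368, 311, 295 and 253 CPM in control 1 to 4. Within the deficient group, deficient 2 and deficient 4 were highest and deficient 3 lowest both in these markers and in Usp31. The Usp31 values of deficient 1 and deficient 2 were nearly equal, at 22.8 and 22.9 CPM. Among the controls the orders differed: control 4 was lowest in the markers and highest in Usp31 (16.8 CPM), and control 2 was lowest in Usp31 (14.3 CPM). Control 1 was above deficient 3 in the markers (368 and 356 CPM) and below it in Usp31 (16.2 and 21.1 CPM). Without the 4 libraries at the ends of the first principal component (control 3, control 4, deficient 2 and deficient 4), an alternative chosen after the data were seen, the log2 fold change of Usp31 was 0.52. That fit compares control 1 and control 2 with deficient 1 and deficient 3, and Usp31 was not past the threshold in it. All these comparisons use the values that chose the family, and nothing is read from them.

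Usp10 and Usp7 were also higher in every deficient library than in any control, and Usp22 was lower. Groups that do not overlap in this way were 3 higher (Usp31, Usp10, Usp7) and 1 lower (Usp22) of 42 members, where 5.93% of all tested genes were higher and 6.70% lower without overlap. Apart from Usp31 the gaps between the groups were small, at 0.464 CPM for Usp10, 0.865 CPM for Usp7 and 0.401 CPM for Usp22. With CPM scaled by library totals alone, the groups of Usp10 overlapped and 3 members remained.

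Usp10 (ENSMUSG00000031826, chromosome 8, 119910360 to 119957560, plus strand) acts on p53 and binds the stress granule protein G3BP1. It was at 33.3, 32.6, 31.1 and 31.3 CPM in control 1 to 4 and at 34.5, 40.8, 33.7 and 41.4 CPM in deficient 1 to 4. Deficient 2 and deficient 4 were high, and the other 2 deficient libraries lay just above the controls. The means were 32.1 ± 1.05 and 37.6 ± 4.04 CPM (n = 4 each, ± SD; log2 fold change 0.23, SE 0.07). Deficient 2 and deficient 4 were also highest in neutrophil precursor markers and on the first principal component of the 1000 most variable genes, at 18.7 and 13.3 against 2.46 and -2.30 in deficient 1 and deficient 3. Without control 3, control 4, deficient 2 and deficient 4 the log2 fold change of Usp10 was 0.05. These libraries hold its lowest control values and its highest deficient values, so a smaller difference follows from the choice. Nothing is read from it.

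Usp7 (ENSMUSG00000022710, chromosome 16, 8689595 to 8792308, minus strand) differed little in size. It was at 203, 198, 215 and 203 CPM in control 1 to 4 and at 223, 218, 223 and 216 CPM in deficient 1 to 4. Control 3, the highest control, nearly reached deficient 4, the lowest deficient library. The means were 205 ± 7.45 and 220 ± 3.49 CPM (SD, n = 4 each), a log2 fold change of 0.10 (SE 0.04). Over the fits that left out 1 library it was 0.08 to 0.13, and without the 4 libraries named above it was 0.15.

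Usp22 (ENSMUSG00000042506, chromosome 11, 61151785 to 61175055, minus strand) is the catalytic subunit of the deubiquitinating module of the SAGA coactivator complex, which acts on ubiquitinated histones. It was at 62.2, 56.9, 65.5 and 62.8 CPM in control 1 to 4 and at 54.6, 56.5, 56.1 and 52.8 CPM in deficient 1 to 4. Control 2 was the low control and lay just above deficient 2. The means were 61.9 ± 3.58 and 55.01 ± 1.68 CPM (SD, n = 4 each), a log2 fold change of -0.17 (SE 0.05). It was -0.21 to -0.14 with 1 library left out and -0.11 without the 4 libraries named above.

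**Figure D2:**
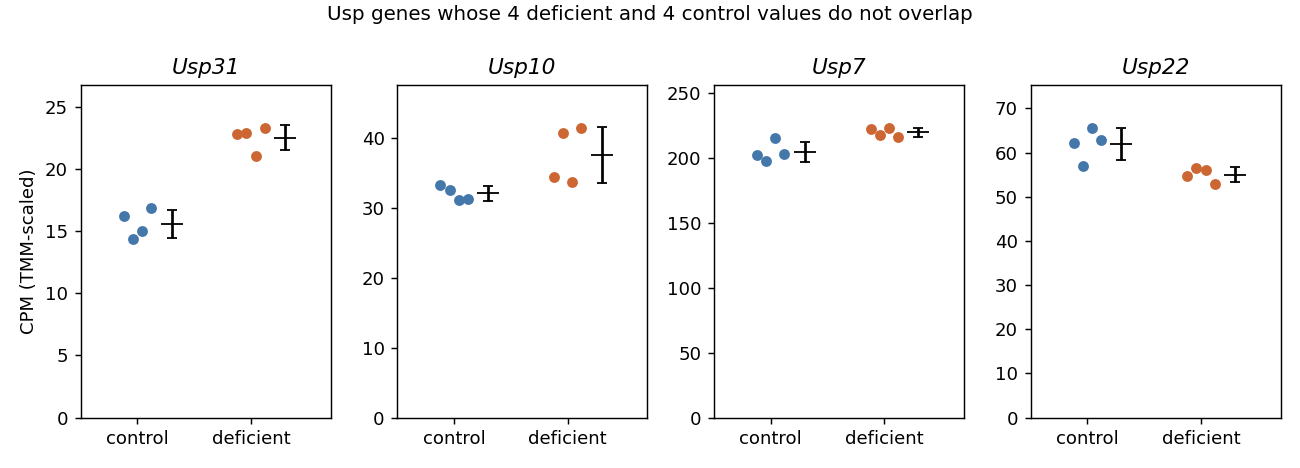
TMM-scaled CPM of Usp31, Usp10, Usp7 and Usp22, 1 point per library (4 control, 4 deficient), with the mean and SD beside each group and every axis starting at 0. The gap between the groups is 4.22 CPM for Usp31, and for the other 3 genes it is under 1 CPM.

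The other members with the largest differences had groups that overlapped. Among the higher ones, Usp2, a protease linked to the cell cycle and to the circadian clock, was at 4.49, 4.96, 2.88 and 3.76 CPM in the controls and 4.65, 5.75, 3.68 and 6.26 CPM in the deficient group. Its log2 fold change was 0.34 (SE 0.18), and without the 4 libraries named above it was -0.16. Those libraries hold the lowest control and the highest deficient values of Usp2. Usp37, which acts on cyclin A, was at 25.7, 21.6, 24.2 and 22.7 CPM in the controls and 25.8, 28.7, 25.03 and 27.3 CPM in the deficient group (log2 fold change 0.19, SE 0.07). In Usp37 only control 1 and deficient 3 crossed. Usp27x, a relative of Usp22 that joins the same adaptors outside SAGA, was near 1 CPM (log2 fold change 0.23, SE 0.25), and its log2 fold change was -0.05 without deficient 2 and -0.03 without the 4 libraries.

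Among the lower ones, Usp40, whose function is little described, was at 18.3, 18.3, 22.7 and 22.1 CPM in control 1 to 4 and 18.7, 14.7, 17.6 and 16.9 CPM in deficient 1 to 4. Control 3 and control 4 were high and the other 2 controls lay among the deficient libraries. Its log2 fold change was -0.26 (SE 0.09), the lowest of the members, and it was -0.0062 without the 4 libraries named above. Those libraries hold the highest control and the lowest deficient values of Usp40. Usp28, known for stabilizing the MYC protein, was at 16.1, 15.02, 17.3 and 14.4 CPM in the controls and 14.6, 13.6, 12.3 and 12.2 CPM in the deficient group (log2 fold change -0.24, SE 0.08). Only deficient 1 and control 4 crossed. Usp35, which is related to the mitochondrial protease Usp30, had 4.15 to 6.04 CPM in control and 3.86 to 5.01 CPM in deficient libraries (log2 fold change -0.20, SE 0.14; 0.06 without the 4 libraries). Usp32, a membrane-anchored protease that acts on the endosomal GTPase RAB7, had 73.0 to 79.1 CPM in control and 65.7 to 77.9 CPM in deficient libraries (log2 fold change -0.11, SE 0.06; -0.0029 without the 4 libraries).

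The family as a whole was level between genotypes. Of the 42 tested members, 22 were higher and 20 lower, and the median log2 fold change was 0.0064 against 0.00072 over all tested genes. The summed level of the tested members was 3006, 3025, 3033 and 3027 CPM in control 1 to 4 and 3116, 3022, 3059 and 3059 CPM in deficient 1 to 4. Deficient 2 lay among the controls and the other 3 deficient libraries lay above them. Differences of single members were small too: 28 of 42 had a log2 fold change within 0.1 of 0. Beyond 0.1 were 14 of the 42 members and 6926 of all 12938 tested genes. At a mean of 5 CPM or more, the median absolute log2 fold change was 0.07 over 39 members and 0.09 over all 9415 genes, and 5.13% of the members against 10.6% of the genes passed 0.25.

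**Figure D3:**
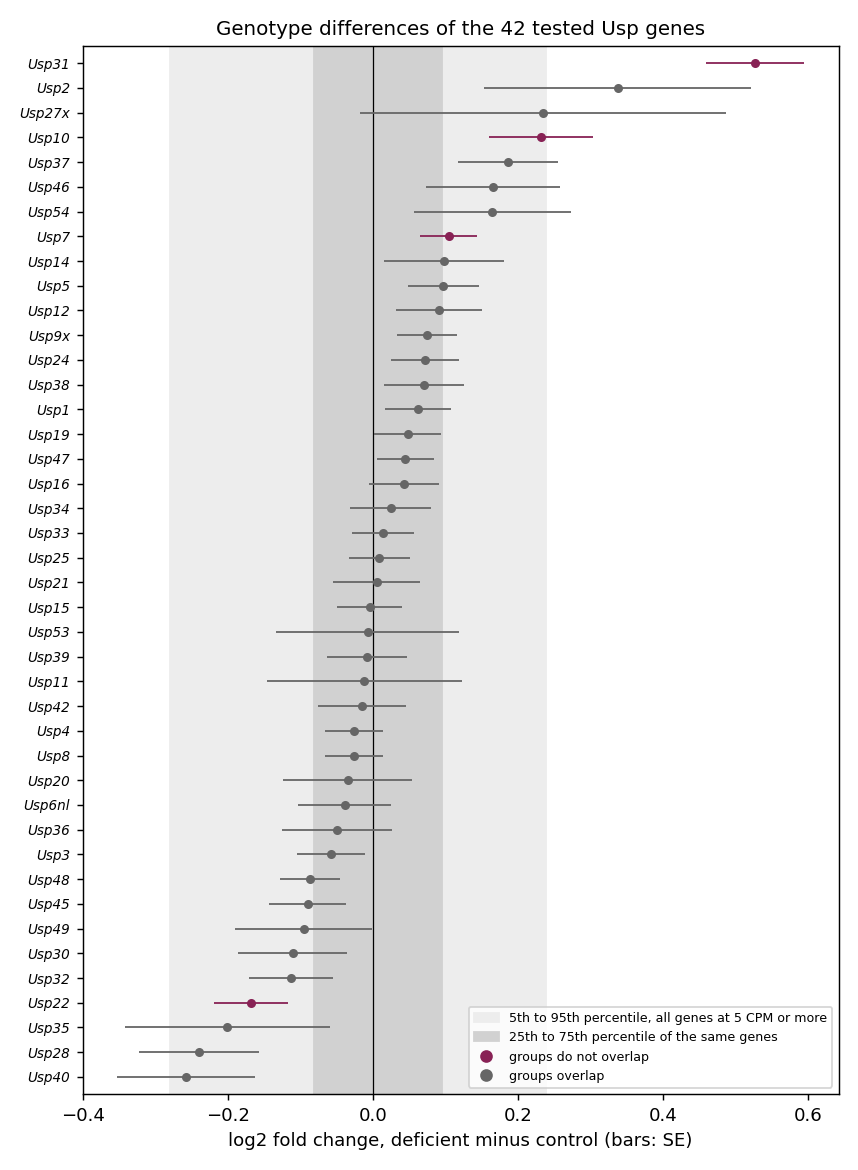
log2 fold change (deficient minus control) of the 42 tested members with its SE as the bar, ordered by size; purple marks members whose groups do not overlap. The grey bands hold the central part of all 9415 genes at 5 CPM or more, from -0.28 to 0.24 (5th to 95th percentile) and from -0.08 to 0.09 (quartiles). Usp31 at 0.53 and Usp2 at 0.34 lie outside both.

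By role, the chromatin proteases did not share a direction. Of 9 tested, 4 were higher and 5 lower, with a median of -0.02. Besides Usp7, Usp22 and Usp27x they include Usp3, Usp16 and Usp21, which act on ubiquitinated histones (log2 fold changes -0.06, 0.04 and 0.0044), the nucleolar protease Usp36 (-0.05), and Usp42 and Usp49 (-0.02 and -0.10). Usp49 shares 52.3% of its exon bases with other listed genes, chiefly Gm20517 on the same strand, so its counts are uncertain. Usp44, another protease of histones and of mitosis, had 5, 5, 2 and 4 counts in the controls and 13, 8, 3 and 4 in the deficient libraries, too few to pass the filter.

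The proteases of DNA repair, replication and the cell cycle were also divided, with 4 of 7 higher and a median of 0.04. Usp1 was at 143, 137, 133 and 126 CPM in the controls and at 137, 146, 140 and 139 CPM in the deficient group (log2 fold change 0.06, SE 0.05; -0.02 without the 4 libraries). Control 1 and control 2 lay among the deficient values, and control 3 and control 4 lay below them. Usp47, which acts on a base excision repair polymerase, had a log2 fold change of 0.04, Usp24 one of 0.07, Usp45, which acts on a repair endonuclease, one of -0.09, and Usp48 one of -0.09. Usp12 and Usp46, the other 2 proteases activated by WDR48, were at 0.09 (SE 0.06) and 0.17 (SE 0.09). Their proteins are close paralogs, as are those of Usp4, Usp11 and Usp15, those of Usp22 and Usp27x, and those of Usp9x and its counterpart on the Y chromosome, and reads shared within these groups may have been split or dropped in counting.

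Of the proteases at endosomes, other membranes and organelles, 2 of 7 were higher and 5 lower, with a median of -0.04. Usp8 was at 232, 234, 243 and 243 CPM in the controls and 239, 223, 241 and 232 CPM in the deficient group (log2 fold change -0.03, SE 0.04; 0.04 without the 4 libraries). The 2 groups of Usp8 covered much the same range, and the 4 libraries hold its highest control and its lowest deficient values. Usp19, anchored in the endoplasmic reticulum, had a log2 fold change of 0.05 (SE 0.05), and Usp20 and Usp33, a pair that acts on receptor recycling, had -0.04 (SE 0.09) and 0.01 (SE 0.04). Usp30, a protease of the mitochondrial outer membrane that opposes mitophagy, had -0.11 (SE 0.08).

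The proteases of signalling and innate immunity, the group of Usp31, Usp10 and Usp2, had 7 of 10 higher and a median of 0.05. Usp25 was at 308, 298, 324 and 313 CPM in the controls and 327, 311, 300 and 311 CPM in the deficient group (log2 fold change 0.01, SE 0.04). The most abundant member thus had the same range in both genotypes. The paralogs Usp4, Usp11 and Usp15 had log2 fold changes of -0.03, -0.01 and -0.01. Usp15, which acts in transforming growth factor signalling, lies 5822685 bases from Lyz2, the site of the Cre insertion, on the same chromosome. Usp9x, which acts in signalling and cell adhesion, was at 0.07 (SE 0.04), Usp34, which acts in Wnt signalling, at 0.02 (SE 0.06), and Usp38 at 0.07 (SE 0.06).

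At the proteasome and on free chains, Usp5 was at 122, 122, 116 and 114 CPM in the controls and 124, 137, 119 and 126 CPM in the deficient group (log2 fold change 0.10, SE 0.05; -0.00067 without the 4 libraries). Those libraries hold the lowest control and the highest deficient values of Usp5. Usp14, which is bound to the proteasome, had the same log2 fold change of 0.10 (SE 0.08), and 26.0% of its exon bases overlap Thoc1 on the opposite strand. Usp39, a splicing factor with no protease activity of its own, had -0.01 (SE 0.06). Usp53 and Usp54, which are divergent members, had -0.01 (SE 0.13) and 0.16 (SE 0.11). Usp50, with 7, 6, 6 and 9 counts in the controls and 12, 12, 3 and 8 in the deficient libraries, was too low to test. Usp6nl, the gene that is no protease, had a log2 fold change of -0.04 (SE 0.06).

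Across single libraries the family showed no shift of its own. The median of the members, each centred on its mean over the 8 libraries, lay between -0.02 and 0.02 on the log2 scale in every library. Members at their highest were spread over all libraries, from 2 in control 1 to 9 in control 3, and members at their lowest from 1 in deficient 1 to 9 in deficient 2. Control 3 was the shallowest library. The coefficient of variation within a group had a median of 5.38% in the controls and 5.94% in the deficient group.

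**Figure D4:**
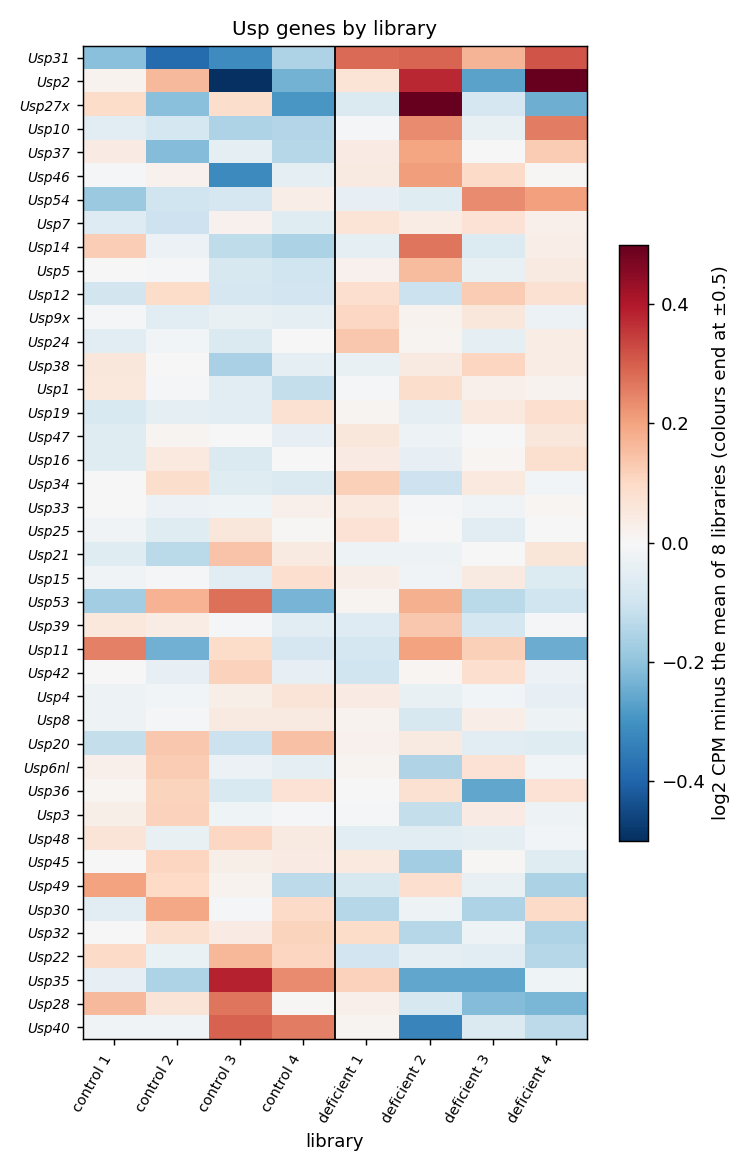
Level of each tested member in each of the 8 libraries as log2 CPM minus its mean over the libraries (red higher, blue lower; colours end at ±0.5), with the members ordered by log2 fold change and a line between controls and deficient libraries. Usp31 changes colour at the line in all 8 libraries, and Usp10 is strongest in deficient 2 and deficient 4.

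Other genes of ubiquitin removal and attachment were compared in the same fit. Of 40 deubiquitinases outside the USP family, 37 were in the table and 35 were tested, 19 of them higher and 16 lower, and their median log2 fold change was 0.01. With the filter used throughout, edgeR put 0 past the threshold, and 10 had an unadjusted p under 0.05, against 24% of all tested genes. With no filter, or at a mean of 5 CPM or more, edgeR called Otud1, where it called 129 and 113 genes in all. Without deficient 1 or deficient 3 it called Otud1 and Psmd7, where it called 522 and 479 genes in all. DESeq2 called 3 (Tnfaip3 and Otud1 lower, Psmd7 higher) and 6.52% of all tested genes, and limma-voom called 1 (Otud1) and 1.07% of all. Nothing particular to the list is read from these counts. Tnfaip3, which encodes the NF-kB inhibitor A20, was at 40.5, 48.5, 42.4 and 45.6 CPM in the controls and 35.0, 20.9, 35.6 and 25.8 CPM in the deficient group. The groups did not overlap, and deficient 2 and deficient 4 were the lowest. Its log2 fold change was -0.60 (SE 0.17, edgeR adjusted p = 0.101). Otud1, a deubiquitinase of innate immune signalling, was at 16.3 ± 1.49 and 12.7 ± 0.388 CPM (n = 4 each, ± SD; log2 fold change -0.36, SE 0.08, edgeR adjusted p = 0.0501). Uchl3, which processes ubiquitin precursors, was at 10.4 ± 0.473 and 12.8 ± 1.49 CPM (n = 4 each, ± SD; 0.30, SE 0.09, edgeR adjusted p = 0.0908).

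Ubiquitin genes and their activating enzymes gave 3 higher and 6 lower of 9 tested, with a median of -0.03. None was past the threshold with edgeR, DESeq2 or limma-voom, and 0 had an unadjusted p under 0.05. Uba7, the activating enzyme of the ubiquitin-like protein ISG15, had a log2 fold change of -0.18 (edgeR adjusted p = 0.416), and Uba3, of the NEDD8 pathway, had 0.08 (edgeR adjusted p = 0.293). Of 16 partner proteins of USPs, 15 were tested, with 10 higher, 5 lower and a median of 0.03. With edgeR 0 were past the threshold. Without deficient 3 it called 1 (Rnf41), where it called 479 genes in all. An unadjusted p under 0.05 was found for 4 of 15, against the same 24% of all tested genes. DESeq2 called 1 (Rnf41), where it called 6.52% of all, and limma-voom called 0.

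Rnf41, the ubiquitin ligase whose level Usp8 sets, was at 47.5, 48.3, 52.1 and 45.0 CPM in the controls and 55.8, 57.3, 52.4 and 59.1 CPM in the deficient group. Control 3 and deficient 3 were nearly equal, and the other libraries were apart. Its log2 fold change was 0.22 (SE 0.06, edgeR adjusted p = 0.0654). G3bp1, the stress granule partner of Usp10, was at 155 ± 6.14 and 171 ± 10.4 CPM (n = 4 each, ± SD; log2 fold change 0.14, edgeR adjusted p = 0.125). Atxn7, a SAGA subunit that holds the module of Usp22, had -0.14 (edgeR adjusted p = 0.232). Wdr48, the activator of Usp1, Usp12 and Usp46, was at 72.7 ± 2.32 and 68.2 ± 0.856 CPM (n = 4 each, ± SD; log2 fold change -0.09, edgeR adjusted p = 0.201).

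**Figure D5:**
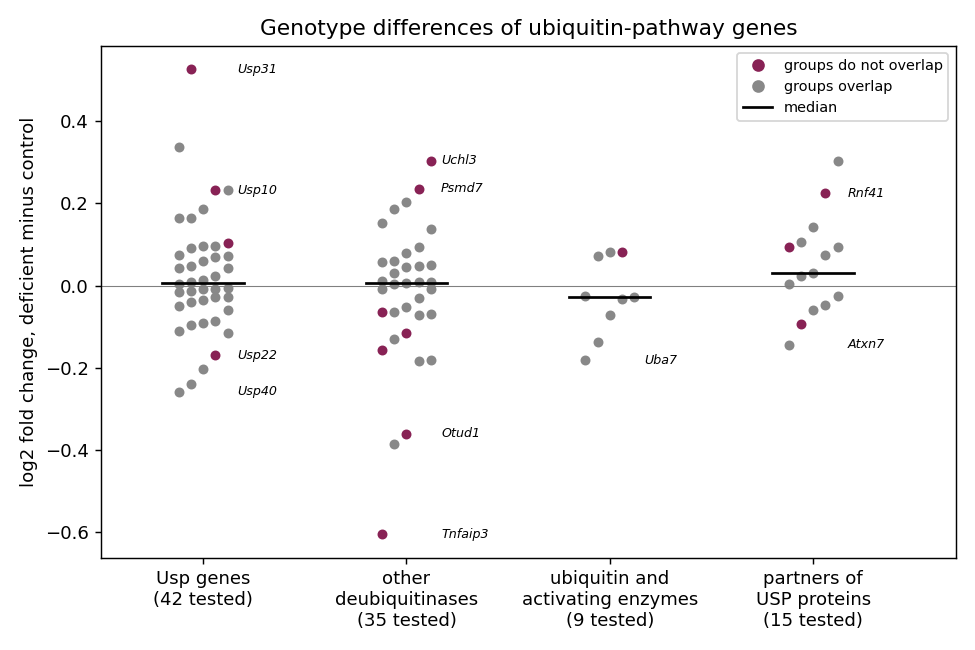
log2 fold change (deficient minus control) of the tested USP members and of 3 lists of other ubiquitin genes, 1 point per gene; purple marks genes whose groups do not overlap and the line is the median of each list. The medians lie between -0.03 and 0.03, and Usp31 (0.53) and Tnfaip3 (-0.60) lie farthest out.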

How the data were processed

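Polyadenylated RNA of sorted monocytes was sequenced as single reads, per the labels' protocols. The authors deposited raw read counts for each gene, per the file headers, and these were used; a second block of normalized values was not used here. The submitters' processing notes name GRCm38, cutadapt, STAR 2.7.3a, HTSeq 0.12.4 and DESeq2; whether strand was used in counting is not given in the sources, and reads of overlapping genes cannot be told apart. The table holds genes whose highest count is at least 6. The row for Cre was left out of library sizes and tests. No molecular identifiers are mentioned, so PCR copies count as reads.

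Low genes were removed by filterByExpr (minimum count of 10, total of 15), and the rest scaled with TMM and fitted with genotype as the only term by robust quasi-likelihood in edgeR 4.0.16 (R 4.3.3). Adjusted p-values (Benjamini-Hochberg, two-sided) run over all 12938 tested genes, and the threshold was 0.05. Each SE comes from the F statistic of its gene. Values in CPM are TMM-scaled except those of 1 count, and ± gives the SD over libraries. TPM was computed from the counts and merged exons of GENCODE M21, which matched 15545 of 15566 identifiers. Promoters came from RefSeq (GRCm38.p6). DESeq2 1.42.0, limma-voom 3.58.1, other filters and scalings, and leaving out libraries were the alternatives. A chi-square statistic of 2.88 to 23.4 per degree of freedom between libraries of a group showed no copies.

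The members, the lists and the tests were chosen with earlier results of these data known. Genes named are Usp31, members whose groups do not overlap, the 5 highest and 5 lowest members by log2 fold change, the 6 most abundant, members under the filter, and of each other list those past the threshold and the 3 with the largest change at a mean of 5 CPM or more. 1 gene picked by these criteria is not reported here. Other members are given as the remainder of their role, and Wdr48 and Psmd7 were named after their values were seen.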

Additional observations from a re-analysis of the deposited data

Results flagged for a closer look

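In the 84 groups of 4 values examined (42 members in each genotype), 2 held a library that stood far from the other 3, judged by its gap to the nearest value relative to the range (Dixon's test at the 95% level). Chance marks about 1 in 20 such groups. Usp27x was at 1.63 CPM in deficient 2 and at 0.837 to 0.943 CPM in the other deficient libraries (ratio 0.866), and its log2 fold change was 0.23 with deficient 2 and -0.05 without it. Usp12 was at 165 CPM in control 2 and at 145 to 146 CPM in the other controls (ratio 0.957).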

How the results depend on the processing

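The count of members past the threshold was 1 with every tool, filter and scaling tried, and 0 to 1 with 1 library left out. The count over all genes was 113, and 843 with DESeq2; it was 108 to 139 under the other tools, filters and scalings, and 1 to 522 with 1 library left out. In 2 alternatives chosen after the data were seen, without the shallowest library of each group and without control 3, control 4, deficient 2 and deficient 4, the members past the threshold were 0 in both, and the genes past it 1 and 3. The median of the members stayed between -0.0047 and 0.02. Of 16 named members under up to 15 alternatives, 223 values were alike in direction and side of the threshold or within 1 SD, 5 (all of Usp31) lost the call and 9 moved, each of these 9 without the 4 libraries. For Usp10, Usp2, Usp5, Usp40 and Usp8 these libraries hold the values that set the groups farthest apart, so a move follows from the choice. For Usp1, Usp32 and Usp35 they hold some of these values. The cause was not tested. At 10 TPM or more were 29 members under every alternative, though not always the same ones. With the longest transcript in place of all exons, Usp40 (10.4 TPM) took the place of Usp6nl (8.90 TPM). No paired analysis was possible because the labels give the groups no shared replicate numbers.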
